A study of Vitis vinifera with 6 samples.

Results

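Phenylalanine ammonia-lyase (PAL) and cinnamate 4-hydroxylase (C4H) catalyse the entry steps of phenylpropanoid metabolism in plants. PAL removes ammonia from phenylalanine to give cinnamic acid, and C4H, a cytochrome P450, hydroxylates cinnamic acid to p-coumaric acid. The products feed lignin, flavonoids and, in grapevine, the stilbenes such as resveratrol. The 10 genes described here were listed by identifier, 7 as PAL and 3 as C4H, and all 10 were found among the 31843 genes of the count table. The PAL genes carry identifiers of chromosomes 6, 8, 13 and 16, with 4 of them in a single block on chromosome 16, and the C4H genes carry identifiers of chromosomes 6 and 11. Identifiers were used as the table gives them, and gene positions, lengths and sequences were not used here.

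Transcripts were compared between embryogenic callus (EC) and young leaves of Vitis vinifera cultivar Chardonnay, with 3 libraries of ribosome-depleted total RNA per tissue. EC is a proliferating, dedifferentiated culture, raised here from anthers and kept in the dark on solid medium, with several culture dishes pooled into each sample. Each leaf sample pooled several small leaves from the vineyard vines that also supplied the anthers. Tissue, growth in the dark and culture on medium cannot be told apart in this design, and no genotype or treatment other than these separated the groups. Nothing in the labels says that replicates came from separate plants or culture lines, so p-values measure only the spread between these samples. Counted reads were 13123072 in leaf replicate 3 and 21914215 to 24209752 in the other 5 libraries. The paper lists a number of read pairs for leaf replicate 3 within the range of the other libraries. It also lists the lowest rates of mapped and properly paired reads for this library on the reference genome used. Over tested features, leaf replicate 3 had a Pearson's r of 0.833 and 0.818 with leaf replicates 1 and 2, which had an r of 0.993 with each other, while EC libraries had an r of 0.990 to 0.994 among themselves. Results that rest on leaf replicate 3 are therefore given with and without it. The tissues were not checked against marker genes here, because no table used here pairs the identifiers with names.

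All 10 genes had the higher mean in leaf, and in all 10 leaf replicates 1 and 2 both lay above every EC library. Of these genes, 6 passed the filter on low counts and were tested, and 4 of the 6 were called lower in EC, which here means an adjusted p under 0.05 in the quasi-likelihood test of edgeR. These were VIT_208s0040g01710, VIT_213s0019g04460 and VIT_216s0039g01100 of the PAL genes and VIT_206s0004g08150 of the C4H genes. Each differed by more than 2-fold and, on the scaled level, had no EC library as high as any leaf library. No gene was called higher in EC. Of all 21550 tested features, 29.2% were called higher in leaf and 24.9% higher in EC, while 25.1% were called higher in leaf with a change of at least 2-fold. With library sizes alone in place of the TMM factors (a scaling for the make-up of each library), 22.2% of the features were called higher in leaf and 33.7% higher in EC, so the balance of all features depends on the scaling, whereas the number of PAL and C4H genes called stayed at 4. After TMM scaling, all leaf libraries lay above all EC libraries in 34.1% of the tested features, beside 4 of the 6 tested genes. Leaf replicates 1 and 2 did so in 43.6%, beside all 6 tested genes. Per counted read, without the TMM factors, leaf replicate 3 lay below EC replicate 2 for VIT_213s0019g04460 and VIT_206s0004g08150, so their separation depends on the scaling. No share over all features was taken for a higher mean in leaf or for features not tested, so the counts over all 10 genes have no like background. The median log2 fold change (EC over leaf) was −3.29 over the 6 tested genes and −0.04 over all tested features. The 6 tested genes are not a sample of the 10, since a gene could pass the filter through leaf alone. This holds for VIT_216s0039g01100, 1 of the 4 called, which had 0, 0 and 1 counts in EC. In whole tissue, fewer cells with a transcript and less transcript per cell cannot be told apart.

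The count of calls turned on single libraries. Without leaf replicate 3, 8 of the 10 genes were tested and all 8 were called lower in EC, where 41.3% of 22537 features were called in that direction (edgeR, Benjamini-Hochberg). Of the 8, VIT_211s0078g00290, VIT_216s0039g01360 and VIT_216s0039g01100 could pass the filter through leaf alone, with at most 7, 3 and 1 counts in any EC library. The 8 of 8 is therefore not evidence about the 10 genes as a set. Without EC replicate 1, and likewise without EC replicate 3, 2 of 8 tested genes were called, near the 20.0% and 19.6% of all features called higher in leaf in these fits. DESeq2 with all libraries gave an adjusted p to all 10 genes and called 8 of them, against 32.9% of 25105 features called higher in leaf. VIT_216s0039g01100, VIT_216s0039g01120, VIT_216s0039g01360 and VIT_211s0078g00290 were among the 8, with at most 1, 5, 3 and 7 counts in any EC library. As they could enter through leaf alone, the 8 of 10 is not evidence about the 10 genes as a set either.

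**Figure D1:**
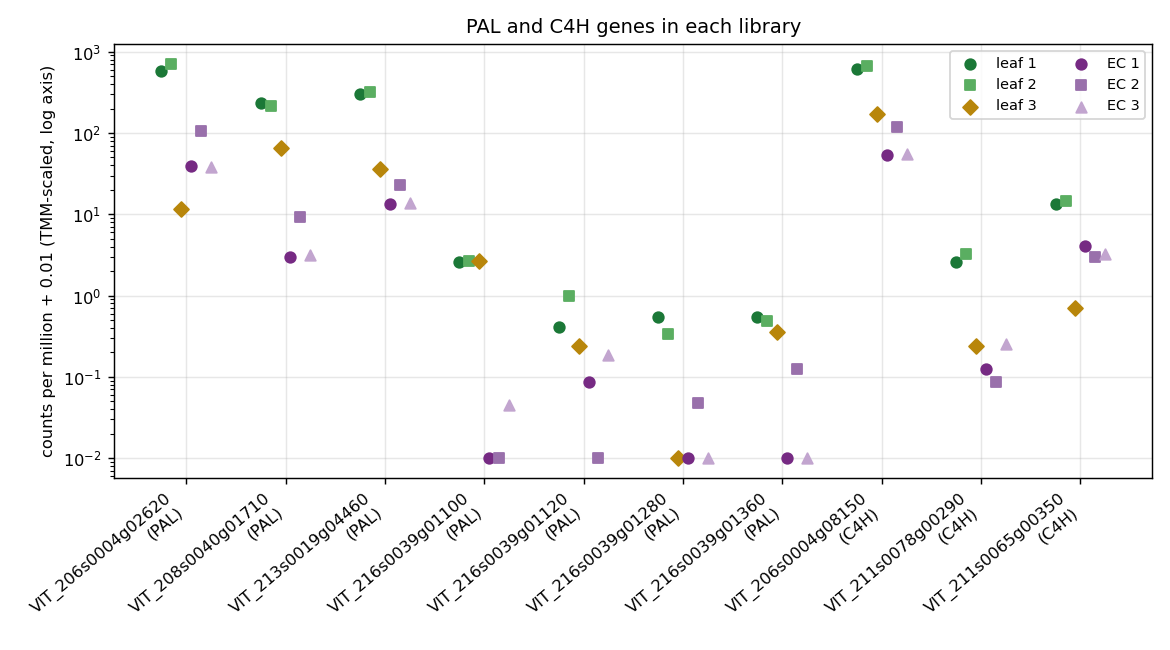
Counts per 1000000 of TMM-scaled library size (CPM) plus 0.01, on a log axis, for the 7 PAL and 3 C4H genes; each point is 1 library, and points at 0.01 are counts of 0. Leaf 1 and leaf 2 lay above all EC libraries in every gene, while leaf 3 lay below all EC libraries for VIT_206s0004g02620 and VIT_211s0065g00350.

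The PAL gene on chromosome 6, VIT_206s0004g02620, had the most counts of the 7 PAL genes in leaf replicates 1 and 2 and in all EC libraries. It had 13195, 15135 and 100 counts in leaf replicates 1, 2 and 3 and 1021, 2780 and 1101 counts in EC replicates 1, 2 and 3. Per 1000000 counts of the library size after scaling with edgeR's TMM factors (CPM), these were 583, 713 and 11.6 in leaf and 39.4, 105 and 38.2 in EC. Leaf replicates 1 and 2 were thus high, the EC libraries intermediate and leaf replicate 3 the lowest of the 6, so the tissues overlapped. The means were 436 ± 373 CPM in leaf and 60.9 ± 38.4 CPM in EC (SD, n = 3 each), and the log2 fold change was −2.84 with a standard error of 1.34. This difference did not pass (adjusted p = 0.124, edgeR). Without leaf replicate 3 it passed, with a log2 fold change of −3.40 (standard error 0.47, adjusted p = 7.66e-04, edgeR), and with DESeq2 on all libraries the adjusted p was 0.0274.

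VIT_208s0040g01710, the PAL gene on chromosome 8, fell in EC. Leaf replicates 1, 2 and 3 held 5321, 4515 and 567 counts on it, whereas EC replicates 1, 2 and 3 held 77, 243 and 90. This corresponded to 235, 213 and 65.8 CPM in leaf against 2.97, 9.20 and 3.12 CPM in EC. Every leaf library lay above every EC library, leaf replicate 3 included. The level was 33.6-fold higher in leaf, a log2 fold change of −5.07 (standard error 0.78, adjusted p = 0.00368, edgeR). This call held under all 15 alternatives, where the log2 fold change lay between −5.78 and −4.72.

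VIT_213s0019g04460, the PAL gene on chromosome 13, was also lower in EC. It had 6883, 6882 and 312 counts in leaf and 349, 602 and 396 counts in EC. On the scaled level leaf replicates 1 and 2 had 304 and 324 CPM, leaf replicate 3 had 36.2 CPM, and the EC libraries had 13.5, 22.8 and 13.7 CPM. On this scale the tissues did not overlap, although leaf replicate 3 stood nearer to the EC libraries than to the other leaves. Per counted read, without the TMM factors, leaf replicate 3 lay below EC replicate 2. The level was 13.3-fold higher in leaf, with a log2 fold change of −3.73 (standard error 0.87, adjusted p = 0.0151, edgeR). Without leaf replicate 3 the log2 fold change was −4.22 (standard error 0.24, adjusted p = 1.48e-05, edgeR). Leaving out any one EC library ended the call, with an adjusted p of 0.0666, 0.0506 and 0.0663 (edgeR) without EC replicates 1, 2 and 3.

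The 4 PAL genes of the chromosome 16 block had few counts. They held 92, 95 and 28 counts together in leaf replicates 1, 2 and 3 and 2, 4 and 6 counts in EC replicates 1, 2 and 3. A count of 3 corresponded to 0.133, 0.141 and 0.348 CPM in the leaf libraries and to 0.104 to 0.116 CPM in EC. Their share of the counts on the listed PAL genes was 0.361% in leaf replicate 1 (95% Wilson interval 0.294% to 0.442%), 0.357% in leaf replicate 2 (0.292% to 0.436%) and 2.78% in leaf replicate 3 (1.93% to 3.99%). In EC the share was 0.138% (0.0379% to 0.502%), 0.110% (0.0429% to 0.283%) and 0.377% (0.173% to 0.819%). Such intervals take in counting error alone.

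Of this block, VIT_216s0039g01100 was the 1 gene that passed the filter. It had 59, 57 and 23 counts in leaf and 0, 0 and 1 in EC. At 2.61, 2.69 and 2.67 CPM the 3 leaf libraries were nearly level. On this scale the gene was the 1 of the 10 in which leaf replicate 3 was not the lowest leaf library. Per counted read, without the TMM factors, leaf replicate 3 was the lowest here too. The 23 counts of that library leave the order open to counting error. The 139 leaf counts against 1 EC count gave a scaled ratio of 215, with an exact 95% counting interval of 38.0 to 8553. Its adjusted p was 7.45e-04 (edgeR). The fitted log2 fold change of −7.22 and its standard error of 0.64 depend on the prior count. The call held under all 14 alternatives that tested the gene. With at most 1 count in any EC library, the gene could pass the filter through leaf alone. Its call and the alternatives are therefore not evidence about the genes as a set.

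VIT_216s0039g01120, VIT_216s0039g01280 and VIT_216s0039g01360 did not pass the filter with all 6 libraries. VIT_216s0039g01120 had 9, 21 and 2 counts in leaf and 2, 0 and 5 in EC, a scaled leaf over EC ratio of 7.07 (exact 95% counting interval 3.07 to 19.0). VIT_216s0039g01280 had 12, 7 and 0 counts in leaf and 0, 1 and 0 in EC, a ratio of 29.4 (4.67 to 1221). VIT_216s0039g01360 had 12, 10 and 3 counts in leaf and 0, 3 and 0 in EC, a ratio of 12.9 (3.93 to 66.7). The direction was the same in all 3, with leaf replicate 3 at 0 for VIT_216s0039g01280. Reads shared by near-identical copies could be divided between these neighbouring genes by the counting step, so their single values are uncertain.

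Among the C4H genes, VIT_206s0004g08150 on chromosome 6 held 92.8% to 99.5% of the C4H counts of each library. It had 13769, 14283 and 1483 counts in leaf and 1383, 3149 and 1587 in EC. The scaled values were 609, 673 and 172 CPM in leaf against 53.4, 119 and 55.1 CPM in EC. On this scale all leaf libraries were above all EC libraries, with leaf replicate 3 the closest to them. Per counted read, without the TMM factors, leaf replicate 3 lay below EC replicate 2. The gene was 6.39-fold higher in leaf (log2 fold change −2.68, standard error 0.64, adjusted p = 0.0166, edgeR). Without leaf replicate 3 the log2 fold change was −3.06 (standard error 0.37, adjusted p = 3.93e-04, edgeR). The call was lost without EC replicate 1 (adjusted p = 0.0697, edgeR) and without EC replicate 3 (adjusted p = 0.0708, edgeR).

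VIT_211s0065g00350, a C4H gene on chromosome 11, had 299, 311 and 6 counts in leaf and 105, 78 and 93 in EC. Leaf replicates 1 and 2 stood at 13.2 and 14.7 CPM, the EC libraries at 4.05, 2.95 and 3.23 CPM, and leaf replicate 3 at 0.696 CPM, below all of them. The EC libraries were close together, at 3.41 ± 0.572 CPM (SD, n = 3). Over all libraries the log2 fold change was −1.49 (standard error 0.94, adjusted p = 0.226, edgeR), and without leaf replicate 3 it was −2.01 (standard error 0.17, adjusted p = 5.94e-05, edgeR). With DESeq2 and all libraries the adjusted p was 0.165.

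The other C4H gene on chromosome 11, VIT_211s0078g00290, had 58, 69 and 2 counts in leaf and 3, 2 and 7 in EC. In CPM this was 2.56, 3.25 and 0.232 against 0.116, 0.0757 and 0.243. Leaf replicate 3 fell among the EC libraries, and the gene did not pass the filter with all libraries. Without leaf replicate 3 it was tested and passed, with a log2 fold change of −4.24 (standard error 0.42, adjusted p = 1.22e-04, edgeR). With at most 7 counts in any EC library, it could enter that fit through leaf alone.

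**Figure D2:**
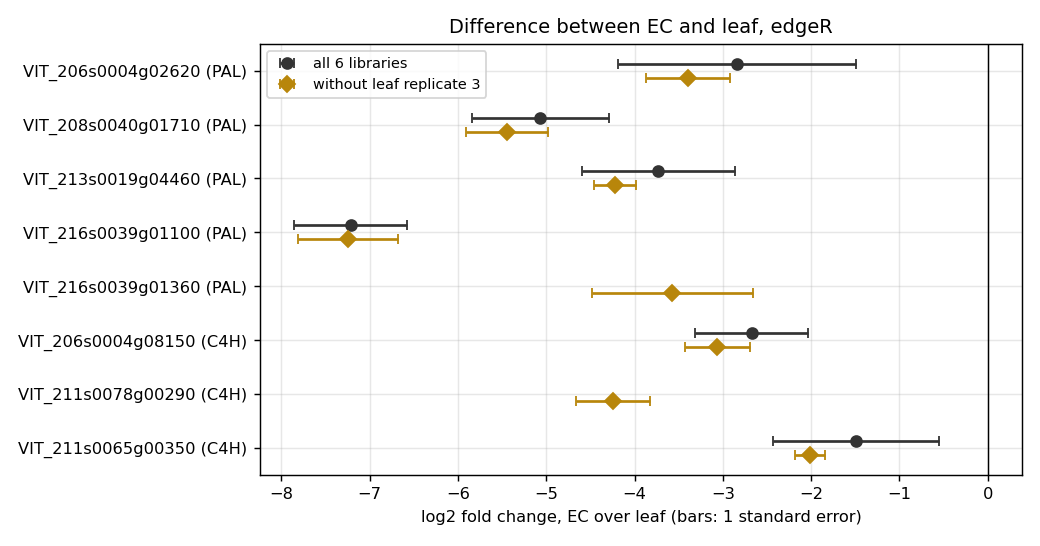
Log2 fold change of EC over leaf with bars of 1 standard error (edgeR), for the genes tested with all 6 libraries (circles) and without leaf replicate 3 (diamonds); values below 0 are higher in leaf. Without that library VIT_206s0004g02620 moved from −2.84 to −3.40 and its standard error from 1.34 to 0.47, and 2 genes that had not been tested appear with a diamond alone.

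Summed over the listed genes of each family, PAL stood at 1127, 1255 and 117 CPM in leaf replicates 1, 2 and 3 and at 55.9, 137 and 55.3 CPM in the EC replicates. Leaf replicate 3 lay between EC replicate 2 and the other EC libraries. C4H stood at 624, 691 and 173 CPM in leaf and at 57.5, 122 and 58.6 CPM in EC, without overlap. The means were 833 ± 623 CPM in leaf and 82.9 ± 47.2 CPM in EC for PAL, a ratio of 10.1, and 496 ± 282 CPM and 79.4 ± 37.1 CPM for C4H, a ratio of 6.25 (SD, n = 3). For leaf replicates 1 and 2 alone, the ratio to the EC mean was 14.4 for PAL and 8.28 for C4H. For leaf replicate 3 alone it was 1.41 and 2.18. These sums carry no test.

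The counts of the families did not move in one proportion. Counts on C4H genes divided by counts on PAL genes gave 0.554 and 0.551 in leaf replicates 1 and 2, 1.48 in leaf replicate 3, and 1.03, 0.890 and 1.06 in EC. The ratio was therefore lowest in the pair of similar leaves and highest in the third leaf library, with EC between them. As lengths were not used, only the change of this ratio between libraries can be read, not its size.

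The make-up of the counts on the listed PAL genes, called PAL counts here, also differed between libraries. VIT_206s0004g02620 held 51.8% (95% Wilson interval 51.1% to 52.4%) and 56.8% (56.2% to 57.4%) of the PAL counts in leaf replicates 1 and 2 but 9.93% (8.23% to 11.9%) in leaf replicate 3. In EC it held 70.5% (68.1% to 72.8%), 76.6% (75.2% to 78.0%) and 69.1% (66.8% to 71.3%). VIT_208s0040g01710 showed the opposite order, with 20.9%, 16.96% and 56.3% in leaf replicates 1, 2 and 3 but 5.89% ± 0.721 in EC (SD over 3 libraries). The share of VIT_213s0019g04460 was 27.9% ± 2.69 in leaf and 21.8% ± 4.57 in EC (SD, n = 3). For each of these 3 shares the leaf and EC libraries did not overlap. For VIT_213s0019g04460 the gap lay within counting error. Its share was 25.8% (95% Wilson interval 25.3% to 26.4%) in leaf replicate 2 and 24.9% (22.8% to 27.0%) in EC replicate 3. An exact permutation test (two-sided) of each of the 3 shares had p = 0.1, below which 3 libraries against 3 cannot go (adjusted p = 0.1 over the 3 shares). The shares of a family are bound to one another, so these are not separate results.

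**Figure D3:**
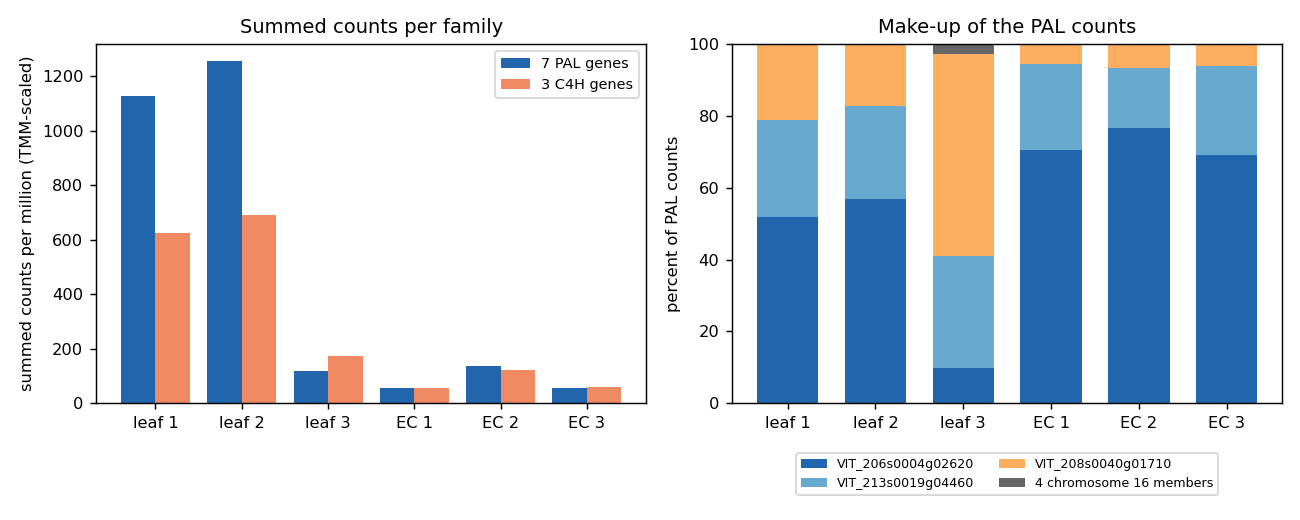
Left, summed counts per 1000000 of TMM-scaled library size (CPM) for the 7 PAL and 3 C4H genes in each library; right, the percent of all PAL counts held by each PAL gene, with the 4 chromosome 16 genes together. PAL reached 1127 and 1255 CPM in leaf 1 and leaf 2 and 117 CPM in leaf 3, where VIT_208s0040g01710 held 56.3% of the PAL counts.

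Within leaf, after TMM scaling, replicate 3 was the lowest leaf library for 5 of the 6 tested genes, against 47.7% of all tested features. Over all 10 genes it was the lowest for 9, but the genes not tested had at most 3 counts in leaf replicate 3. The mean of leaf replicates 1 and 2 was 55.9 times the value of leaf replicate 3 for VIT_206s0004g02620, 20.0 times for VIT_211s0065g00350 (6 counts in leaf replicate 3) and 12.5 times for VIT_211s0078g00290 (2 counts there). It was 8.68 times for VIT_213s0019g04460, 3.72 times for VIT_206s0004g08150 and 3.40 times for VIT_208s0040g01710. Among all tested features 0.441% had a ratio of leaf replicate 3 to the other leaves as low as that of VIT_206s0004g02620, 1.99% as low as that of VIT_211s0065g00350 and 4.50% as low as that of VIT_213s0019g04460. For VIT_206s0004g08150 and VIT_208s0040g01710 the share was 10.4% and 11.6%. The median log2 ratio of leaf replicate 3 to the other leaves was −0.04 over all tested features. TMM scaling brings this median near 0, so it does not show how the typical feature moved. In 21.2% of the tested features leaf replicate 3 was at least 2-fold below the mean of the other leaves. The pattern with leaf replicates 1 and 2 above and leaf replicate 3 below every EC library was found in 2 of the 6 tested genes, 1 PAL and 1 C4H, and in 7.16% of all tested features. The part of RNA quality or of other cells in the values of leaf replicate 3 was not tested.

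Within EC, replicate 2 stood above the other cultures for the genes with many counts. Its level was 3.02 times the mean of EC replicates 1 and 3 for VIT_208s0040g01710, 2.71 times for VIT_206s0004g02620, 2.20 times for VIT_206s0004g08150 and 1.67 times for VIT_213s0019g04460. A ratio of at least 2 was found for 1.79% of all tested features. VIT_211s0065g00350 did not follow, with a ratio of 0.811. As the EC libraries were otherwise alike (r of at least 0.990), this spread among cultures concerned few features, 3 of the 6 tested genes among them.

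**Figure D4:**
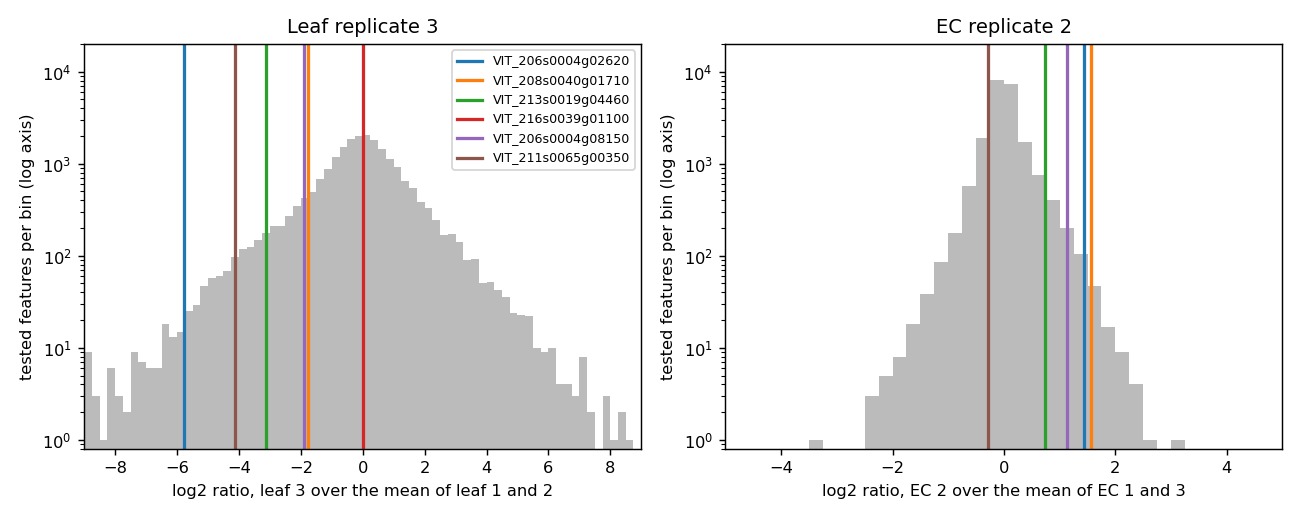
Histograms of all 21550 tested features, with a log axis for their number, by the log2 ratio of leaf 3 to the mean of leaf 1 and 2 (left) and of EC 2 to the mean of EC 1 and 3 (right); values beyond 9 on either side are in the outermost bins, and coloured lines mark the tested PAL and C4H genes. On the left the line of VIT_206s0004g02620 stands at −5.79 and that of VIT_216s0039g01100 at 0.01; on the right, where VIT_216s0039g01100 is left out for its 1 EC count, VIT_208s0040g01710 stands at 1.56 and VIT_211s0065g00350 at −0.29.

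The tested PAL and C4H genes were compared by their course over the 6 libraries, using Pearson's r of log2(CPM + 1), as a description without a test. The points share tissue and library, so a high r is common. VIT_206s0004g08150 (C4H) had an r of 0.985 with VIT_213s0019g04460, 0.973 with VIT_208s0040g01710 and 0.779 with VIT_206s0004g02620, which ranked 84, 251 and 3014 among 13399 genes with a mean of at least 10 CPM. VIT_206s0004g02620 had an r of 0.835 with VIT_213s0019g04460 and 0.621 with VIT_208s0040g01710. The lower values for VIT_206s0004g02620 rested on leaf replicate 3. Without that library its r was 0.999 with VIT_206s0004g08150, 0.986 with VIT_213s0019g04460 and 0.992 with VIT_208s0040g01710, and the r of VIT_206s0004g08150 with the last pair was 0.991 and 0.996.

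The genes most like VIT_206s0004g02620 were VIT_214s0060g01380, VIT_205s0136g00260 and VIT_200s0361g00040, each with an r of 0.998 to 0.999. VIT_205s0136g00260 had 10243, 13401 and 152 counts in leaf and 1087, 2774 and 1205 in EC, so leaf replicate 3 was low and EC replicate 2 high there too. VIT_214s0060g01380, with the highest r, had 6385, 6234 and 1214 counts in leaf and 4433, 5469 and 5112 in EC, a course of the same shape but far smaller size, since r does not measure the size of a difference. The genes most like VIT_206s0004g08150 were VIT_209s0002g05730, VIT_218s0001g11760 and VIT_215s0045g01310, with an r of 0.996 to 0.998. No table used here gives these identifiers a name.

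The table holds 24 other identifiers in the block of chromosome 16 that surrounds the 4 PAL genes. No table used here annotates them, so they are described as neighbours alone, and whether any of them is itself a PAL gene was not determined. Of the 24, 9 had no count in any library and 5 passed the filter. All 5 were called higher in leaf (edgeR, adjusted p under 0.05), against 29.2% of all tested features, and their median log2 fold change was −4.64. VIT_216s0039g01130, VIT_216s0039g01170 and VIT_216s0039g01330, with at most 2 counts in any EC library, could pass the filter through leaf alone, so neither this number nor the median is evidence about the block.

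VIT_216s0039g01330 had 129, 151 and 163 counts in leaf and 0, 1 and 0 in EC, and it was high in leaf replicate 3 as well (adjusted p = 0.00134, edgeR). VIT_216s0039g01170 had 13, 12 and 9 counts in leaf and none in EC, at least 6.55-fold higher in leaf against a floor of 3 counts per library (adjusted p = 0.00500, edgeR). VIT_216s0039g01130 had 47, 42 and 7 counts in leaf and 1, 2 and 2 in EC (adjusted p = 0.00150, edgeR). VIT_216s0039g01390, the neighbour with the most counts, had 647, 683 and 365 counts in leaf and 316, 651 and 444 in EC and differed least, with a log2 fold change of −0.98 (standard error 0.31, adjusted p = 0.0430, edgeR). This call held under 8 of the 15 alternatives. It was lost without leaf replicate 1 (adjusted p = 0.0623, edgeR), leaf replicate 2 (0.0803), EC replicate 1 (0.122) or EC replicate 3 (0.144), with the replicate block (0.0566), with no filter on low counts (0.0510) and with library sizes alone, where the log2 fold change was −0.49. VIT_216s0039g01310, named after its values were seen as the remaining gene of the 5, had 357, 431 and 132 counts in leaf and 13, 21 and 23 in EC. The neighbours thus included genes, such as VIT_216s0039g01330, whose leaf replicate 3 was not low.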

How the data were processed

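The authors deposited raw counts per gene and TE family, without normalisation. Per the study's methods, they trimmed reads, discarded tRNA and rRNA reads, aligned what remained to PN40024 12X with HISAT2 allowing multiple positions, and counted V2.1 genes and TE families with TEtranscripts. They took 2 chloroplast-like genes out of the counts. Whether strand was used is not given in the sources used here, so antisense transcripts cannot be told apart.

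The whole table (32075 features) was fitted with edgeR 4.0.16 in R 4.3.3, using TMM factors, filterByExpr (minimum count 10, minimum total 15), glmQLFit with robust dispersion and glmQLFTest, with adjustment over 21550 features. Standard errors are the log2 fold change over the square root of F. CPM divide by TMM-scaled library size, with factors of 0.961, 0.974 and 0.658 in leaf and 1.15 to 1.19 in EC. Ratios of a library to the other replicates used a pseudocount of 0.1 CPM where ranked among features. Counting intervals (95%) used scipy 1.17.1. The fitting code was tested on simulated data. Alternatives used DESeq2 1.42.0, limma-voom (limma 3.58.1), other scalings, filters and a replicate block, or left out a library. Genes, neighbours and lists were chosen with earlier results of these data known. The rule named all 10 genes, the neighbours with the 3 largest changes in each direction or the highest level, and the 3 genes most like the leading PAL and C4H gene. The RefSeq table used here matched 0 identifiers, so the list of other pathway genes, marker genes, sequences and promoter motifs were not analysed here.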

Additional observations from a re-analysis of the deposited data

How the results depend on the processing

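All 88 log2 fold changes of the 6 tested genes under the alternatives kept their direction. With all libraries, 4 of the 6 tested genes were called higher in leaf. The number was 8 of 10 with DESeq2, 3 of 4 with at least 10 counts in every library and 4 of 6 under the other settings but 1. That 1 was the fit with no filter on low counts, with 6 of 10, where 6883 of 28238 features were called higher in leaf. The 8 of 10 and the 6 of 10 include genes with few EC counts that could enter through leaf alone. Neither number is evidence about the genes as a set. With a library left out, 2 to 8 genes were called, with 6 or 8 tested. The number of PAL and C4H genes called higher in EC was 0 throughout (edgeR, limma-voom and DESeq2). With DESeq2 all 10 genes had a log2 fold change (EC over leaf) below 0. The replicate block left 4 calls among the 6 tested PAL and C4H genes, the same number, where 5008 of 21550 features were called higher in leaf. Same-numbered leaf and EC libraries had correlations of deviations of −0.004, 0.108 and 0.111, beside −0.111 to 0.105 for differently numbered ones. As leaf replicate 3 stood apart from the other leaves, these values cannot show whether the numbers pair the samples. The labels do not say that a number marks a shared batch, so the main fit took no pairing. Of the neighbours on chromosome 16, 5 were called higher in leaf, 8 with DESeq2, 2 with at least 10 counts in every library (where 2 were tested), 3 with the replicate block (VIT_216s0039g01170 and VIT_216s0039g01390 lost the call, at an adjusted p of 0.0506 and 0.0566, edgeR) and 4 to 6 with a library left out. Of all features, 6290 were higher in leaf (4185 with at least 10 counts in every library, where 16375 were tested; 4412 to 9304 with a library left out) and 5365 higher in EC (3383 to 8685 with a library left out). With library sizes alone this balance turned, with 4778 higher in leaf and 7268 higher in EC. The cause of the other changes was not tested. The summed levels differed by −3.33 for PAL and −2.64 for C4H on the log2 scale (EC over leaf), between −3.87 and −2.92 and between −3.07 and −2.33 with a library left out, and by −3.02 and −2.30 with library sizes alone, a scaling under which the median of all tested features moved from −0.04 to 0.41. For the chromosome 16 genes the depth limits any comparison, since EC held 12 counts on the 4 of them in all.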
